A study of Drosophila melanogaster with 4 samples.

Results

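The cytosolic ribosomal protein (RP) genes of Drosophila melanogaster were taken as the protein-coding genes of the Ensembl annotation whose symbol starts with RpL or RpS. This gave 92 of 13968 protein-coding genes on the main chromosome arms, 54 for the large subunit (RpL, the RpLP stalk proteins included) and 38 for the small subunit (RpS). Genes with related names that the rule also takes in, such as RpL7-like, RpL24-like and RpLP0-like, were kept, and Rack1 and sta, which encode cytosolic ribosomal proteins under other symbols, are described apart.

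Binding was measured by chromatin immunoprecipitation and sequencing (ChIP-seq) with an antibody to GFP in whole embryos, 0 to 24 h of age, of the transgenic strain Gug-GFP, which expresses Gug fused to eGFP. There were 4 biological replicates of this 1 group, each with technical replicate 1, from chromatin sonicated to 200 to 800 bp. No control sample is used here. Whole embryos mix all embryonic cell types over this age range, the labels do not state the promoter that drives the fusion protein, and lists of peaks hold no marker of tissue.

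Each ribosome has a large subunit that joins amino acids and a small subunit that reads the mRNA, and RP genes are among the most strongly and evenly transcribed genes of growing cells. In flies most of them start transcription at a polypyrimidine initiator, the TCT motif, in place of the common initiator, and factors such as M1BP and DREF are known at their promoters, the latter at the DNA replication-related element (DRE). Gug, or Grunge, is the Atrophin family protein of the fly. It is known as a corepressor that reaches DNA through partner proteins.

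A thresholded list of peaks had been deposited for each replicate. On the main arms the lists held 1948, 3786, 2117 and 2450 peaks for replicates 1 to 4. An RP gene was counted in a list when the summit of a peak lay within 1 kb of one of its transcription start sites (TSSs), and was called when this held in at least 2 of the 4 lists. The strength of a peak is given as a signal percentile, its rank by deposited signal score within its own list, where 100 is the strongest peak. Gug itself had a peak in all 4 lists, at signal percentiles of 23.5, 56.2, 0.236 and 33.0. Distances are in bp from the nearest TSS of the gene, and a negative distance lies upstream. Where a list held several peaks within 1 kb of a gene, the summit nearest to its TSS gave the values.

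Most Gug-eGFP summits of the RP genes, a mean of 78.5% ± 10.4 per list (SD, n = 4), lay within 200 bp of a TSS of the gene. Promoter sequences are therefore shown first. The TCT initiator was searched on the strand of the gene as CTTT after a pair of pyrimidines, with the C of CTTT within 5 bp of the canonical TSS. It was found at 34 of 92 RP genes (37.0%) and at 1.20% of all protein-coding genes. The stretches of 30 bases around the canonical TSS of 7 called RP genes, read by coordinates from the Release 6 genome sequence (dm6), are shown 5′ to 3′ on the gene's strand, with the matched letters in capitals. RpL34b, RpL23A, RpS21, RpL8 and RpL28 were in all 4 lists and are the only RP genes of all 4 lists with the motif, while RpS5a and RpS15Aa were in 3 lists.
RpL34b (chr3R:9401188-9401217, minus strand): tttctagtttcgtCTCTTTgaggtatgcac
RpL23A (chr3L:1668640-1668669, minus strand): aactgcccctcagtttTCCTTTtcatttct
RpS21 (chr2L:2856096-2856125, plus strand): acgtccagctgtcatTTCTTTctctttttc
RpL8 (chr3L:2587441-2587470, plus strand): aggatgtcttcCTCTTTTCTTTtcttttcg
RpL28 (chr3L:3222944-3222973, minus strand): tgtcgggctgccatatTTCTTTccttcttg
RpS5a (chrX:17148250-17148279, minus strand): cacactgccgtaacatgTTCTTTttcaggc
RpS15Aa (chrX:13337624-13337653, minus strand): tttttccttccgtttCCCTTTcttttccct

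The DRE was searched as TATCGATA on both strands from 250 bp upstream to 50 bp downstream of the canonical TSS, a window of 300 bp. It was found at 28 of 92 RP genes (30.4%) and at 8.94% of all protein-coding genes. Of the 39 called RP genes 13 held a DRE. The median summit over the lists lay a median of 43 bp from the nearest DRE, and within 100 bp in 10 of the 13. The search window and most RP gene summits both lie near the TSS, which favours short distances. The same distance was not measured at other genes with a DRE. The stretches of 40 bases centred on the DRE, in capitals, are shown for 6 of these 10 genes on the gene's strand.
RpL28 (chr3L:3223029-3223068, minus strand): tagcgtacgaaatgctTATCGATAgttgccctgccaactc
RpS15Aa (chrX:13337690-13337729, minus strand): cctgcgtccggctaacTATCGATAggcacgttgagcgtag
RpS7 (chr3R:30209004-30209043, minus strand): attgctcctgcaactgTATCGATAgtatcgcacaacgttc
RpL10Ab (chr3L:11822758-11822797, plus strand): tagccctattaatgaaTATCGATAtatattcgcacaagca
RpS10b (chrX:19597938-19597977, plus strand): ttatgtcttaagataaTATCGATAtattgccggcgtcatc
RpS25 (chr3R:11216323-11216362, minus strand): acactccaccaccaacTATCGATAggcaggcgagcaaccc
The summit lay 20 bp from the DRE at RpL28, 10 bp at RpS15Aa, 21 bp at RpS7, 44 bp at RpL10Ab, 48 bp at RpS10b and 28 bp at RpS25. RpS12 differed from them: its DRE lay 37 bp upstream of the TSS and 539 bp from the summit.

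The bases around the median summit are shown for 4 RP genes found in all 4 lists, on the strand of the gene. RpL34b and RpL32 had the strongest peaks of the RP genes, while RpS29 and RpS21 had the summits that lay closest together. Capitals mark the DRE, which only RpS29 of these 4 windows holds.
RpL34b (chr3R:9401258-9401358, minus strand): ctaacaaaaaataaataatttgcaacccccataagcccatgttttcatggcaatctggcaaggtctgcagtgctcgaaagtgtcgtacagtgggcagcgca
RpL32 (chr3R:30046296-30046396, minus strand): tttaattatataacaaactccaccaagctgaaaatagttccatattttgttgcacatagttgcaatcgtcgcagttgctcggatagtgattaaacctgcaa
RpS29 (chr3R:9777997-9778067, plus strand): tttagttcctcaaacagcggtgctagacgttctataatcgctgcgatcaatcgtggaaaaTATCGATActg
RpS21 (chr2L:2856049-2856099, plus strand): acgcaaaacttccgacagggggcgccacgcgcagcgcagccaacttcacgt

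Peaks near RP genes were frequent. Of the 92 RP genes, 39 (42.4%) were called, against 16.0% of all protein-coding genes. All 4 lists held a peak at 14 RP genes (15.2%), against 7.88% of all genes, and at least 1 list held one at 52 (56.5%), against 24.1%. The RP genes fell into 40 in no list, 13 in 1 list, 15 in 2 lists, 10 in 3 lists and 14 in 4. Since the members were chosen with earlier results of these data known, no test over them is given.

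The share ranged widely between replicates. Replicate 1 had a peak at 16 RP genes (17.4%, against 10.3% of all genes). Replicate 2 had one at 51 (55.4%, against 22.5%). Replicate 3 had one at 27 (29.3%, against 13.8%) and replicate 4 at 35 (38.0%, against 13.0%). In each of the 4 lists the share of RP genes was above that of all genes, with a mean of 35.1% ± 16.0 (SD, n = 4) against 14.9% ± 5.30. Replicate 2, which had the longest list, was the highest for both, and replicate 1, the shortest list, was the lowest for both. With every list cut to its 1948 strongest peaks, the mean share of RP genes was 27.7% ± 7.45 and 29 were called, all of them among the 39.

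Replicate 2 carried much of the count. Without it, 24 RP genes (26.1%) had a peak in at least 2 of the other 3 lists, against 12.0% of all genes. Of the 13 RP genes found in 1 list, 12 were found in replicate 2 and 1 in replicate 4. Depth is unknown for these libraries, and its part in the length of the lists was not tested.

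**Figure D1:**
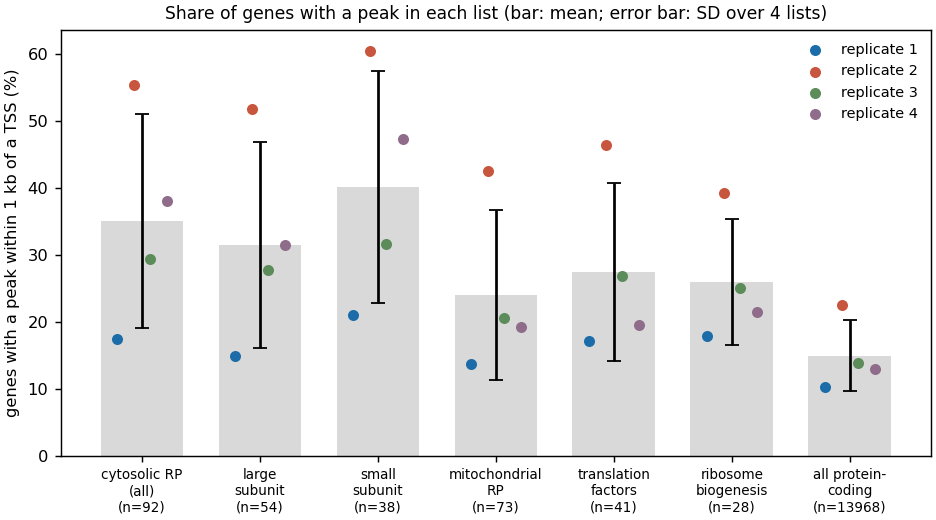
Share of genes with a thresholded peak within 1 kb of a TSS (vertical axis, percent) for the RP genes, both subunits, 3 related gene lists and all protein-coding genes; points are the 4 replicates, grey bars their mean and error bars the SD over the 4 lists. The RP genes averaged 35.1% against 14.9% for all genes, and replicate 2 was the highest point in every group.

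Small-subunit genes had a peak somewhat more often than large-subunit genes in each list. Of 54 large-subunit genes 21 (38.9%) were called and 6 were in all 4 lists. Of 38 small-subunit genes 18 (47.4%) were called and 8 were in all 4. Per list the share was 14.8, 51.9, 27.8 and 31.5% for the large subunit and 21.1, 60.5, 31.6 and 47.4% for the small subunit. The means were 31.5% ± 15.3 and 40.1% ± 17.4 (SD, n = 4). The lists differ in length and both subunits share them, and within a list the small subunit was higher by 8.65 percentage points ± 5.22 (SD, n = 4), in 4 of 4 lists. No test of this difference is given.

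Signal did not set RP genes above other promoters. The median signal percentile of their peaks was 50.5, 55.7, 48.7 and 53.8 in replicates 1 to 4, a mean of 52.2 ± 3.19 (SD, n = 4). For peaks at any protein-coding gene it was 54.0, 56.4, 55.3 and 56.2, a mean of 55.5 ± 1.11. RP genes were below all genes in each of the 4 lists, by amounts of the size of the spread between lists.

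**Figure D2:**
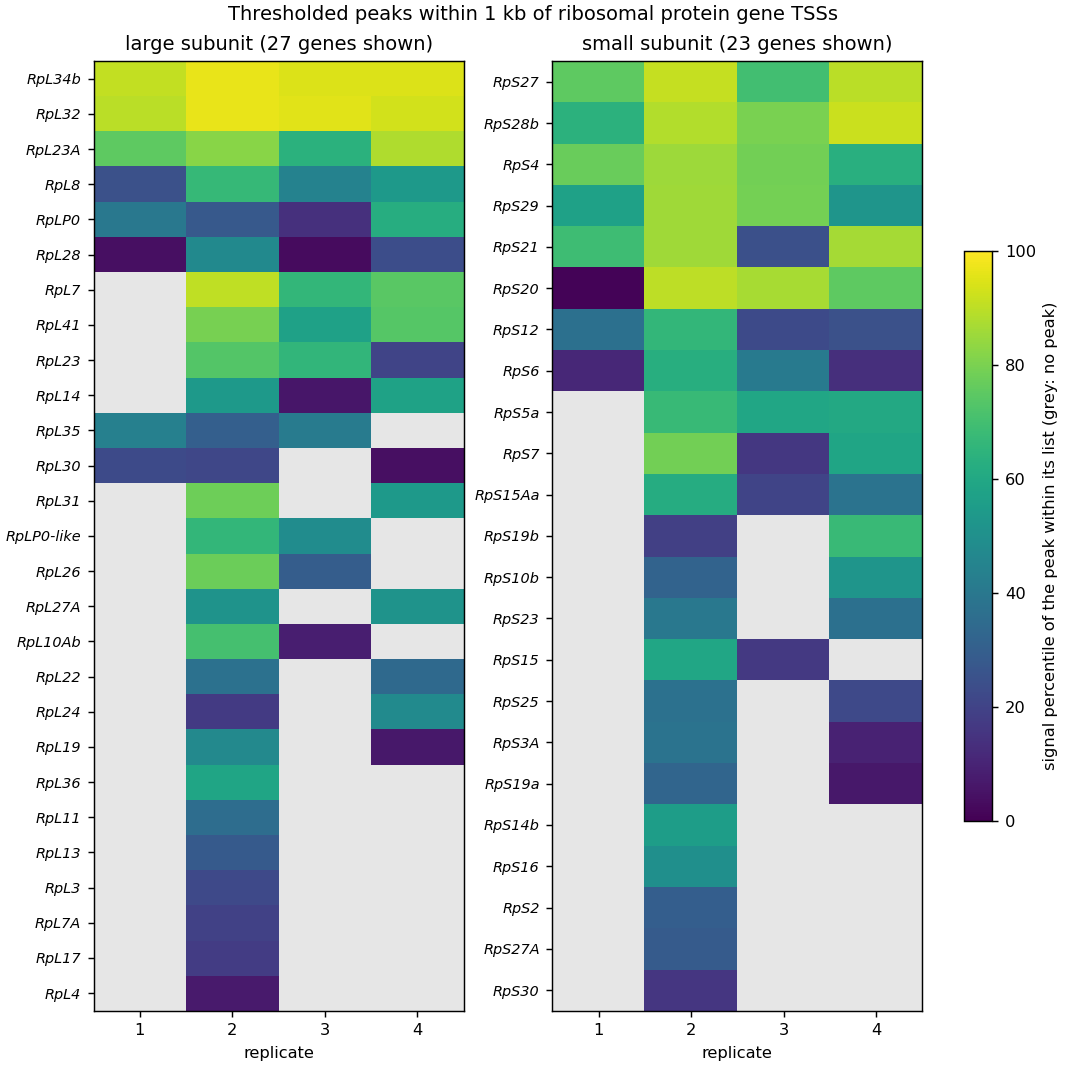
Signal percentile (colour scale, 0 to 100) of the peak at 50 of the 52 RP genes with at least 1 peak (rows) in replicates 1 to 4 (columns), large subunit left and small subunit right; grey means no thresholded peak within 1 kb. RpL34b and RpL32 are high in all 4 lists, and most genes lower down have a peak in replicate 2, or in replicates 2 and 4.

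Among the large-subunit genes, RpL34b and RpL32 had strong peaks in every list. RpL34b (FBgn0037686, chr3R:9400237-9401226, minus strand) had signal percentiles of 90.8, 96.9, 94.9 and 94.8 in replicates 1 to 4, a mean of 94.3 ± 2.56 (SD, n = 4). Its summits lay 83, 69, 92 and 82 bp upstream of the TSS, in the window shown above. RpL32 (chr3R:30045229-30046161, minus strand), known as rp49 and widely used as a reference transcript in the fly, had 89.5, 96.6, 95.4 and 93.2, a mean of 93.7 ± 3.14. Replicate 1 was the lowest for both genes. The summits at RpL32 lay at −203, −68, −224 and −168, so that replicate 2 was the closest to the TSS. The list of replicate 2 held a further summit at −285.

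RpL23A, whose product sits at the exit of the peptide tunnel, had signal percentiles of 75.3, 82.2, 64.0 and 88.0, with a mean of 77.3 ± 10.3, and summits at −109, −111, −100 and −98. RpL8 had 24.8, 67.1, 44.4 and 53.8, with a mean of 47.5 ± 17.7. Its summits lay at −59, −64, −59 and −25, with replicate 4 nearer the TSS than the others. The 4 summits spanned 13 bp at RpL23A and 39 bp at RpL8.

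RpL28 had weak peaks, with signal percentiles of 4.26, 47.3, 3.02 and 23.8 and a mean of 19.6 ± 20.8. Its nearest summit lay at −369 in replicate 1 and at −54, −82 and −29 in replicates 2 to 4. Replicates 2 and 3 also held a further summit, at −311 and −337, so that 3 of the 4 lists had one in that upstream place. RpLP0, the base of the stalk that recruits the elongation factors, had 40.0, 28.1, 13.9 and 62.5, with a mean of 36.1 ± 20.5. Its summits lay at −1, −26, 42 and −23 of its nearest TSS, which is an internal one, since the same summits lay 199 to 267 bp downstream of its first TSS. The other stalk proteins, RpLP1 and RpLP2, had no peak in any list.

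Among the small-subunit genes, RpS27 and RpS28b led. RpS27, which encodes a zinc-finger protein, had signal percentiles of 75.3, 91.3, 69.8 and 89.8, with a mean of 81.6 ± 10.6. Its summits lay at −19, −3, 12 and −7 of the nearest of its 2 TSSs. From its first TSS they lay at 23, −3, 12 and −7, so that replicate 1 was the farthest downstream. RpS28b (chrX:9554623-9555661, plus strand) had 64.3, 88.7, 80.0 and 92.1, with a mean of 81.2 ± 12.4 and summits at −21, −31, −14 and −25. At both genes replicates 2 and 4 were the highest.

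RpS4 had signal percentiles of 77.1, 85.3, 78.6 and 62.9, with a mean of 76.0 ± 9.43 and summits at −82, −82, −73 and −54. RpS29, another zinc-binding protein of the small subunit, had 57.4, 85.6, 79.3 and 52.0, with a mean of 68.6 ± 16.4 and summits at −2, −12, −10 and −9. RpS21 had 68.8, 85.7, 24.3 and 86.7, with a mean of 66.4 ± 29.2 and summits 3, 4, 4 and 6 bp downstream of its first TSS. Its canonical TSS, at the TCT initiator shown above, lies further downstream, so that the summits were upstream of that TSS. The 4 summits agreed within 3 bp at RpS21 and within 10 bp at RpS29, although the strength varied between lists.

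RpS20 had a peak among the weakest of replicate 1 and strong ones elsewhere. Its signal percentiles were 1.03, 90.0, 87.0 and 75.3, with a mean of 63.3 ± 42.0, and its summits lay at −74, −249, −231 and −131. RpS6, the substrate of the S6 kinase downstream of TOR, had 11.1, 62.6, 41.1 and 13.4, with a mean of 32.0 ± 24.5. Its summits fell into 2 places. The upstream place held a summit in all 4 lists, at −477, −481, −501 and −474 from the first TSS, and the place at the TSS held one in replicates 2 and 4, at −18 and −9. RpS12, which acts in fly cell competition, had 36.8, 66.1, 22.5 and 25.0, with a mean of 37.6 ± 20.0, and all its summits were far from the TSS, at −577, −582, −574 and −502.

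Across these 14 genes the range between the 4 nearest summits had a median of 34.5 bp, from 3 bp at RpS21 to 492 bp at RpS6, and was at most 50 bp at 8 of the 14 (57.1%). For all 1101 genes in 4 lists the median was 36 bp, and 61.6% were within 50 bp. The 2 medians were close.

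**Figure D3:**
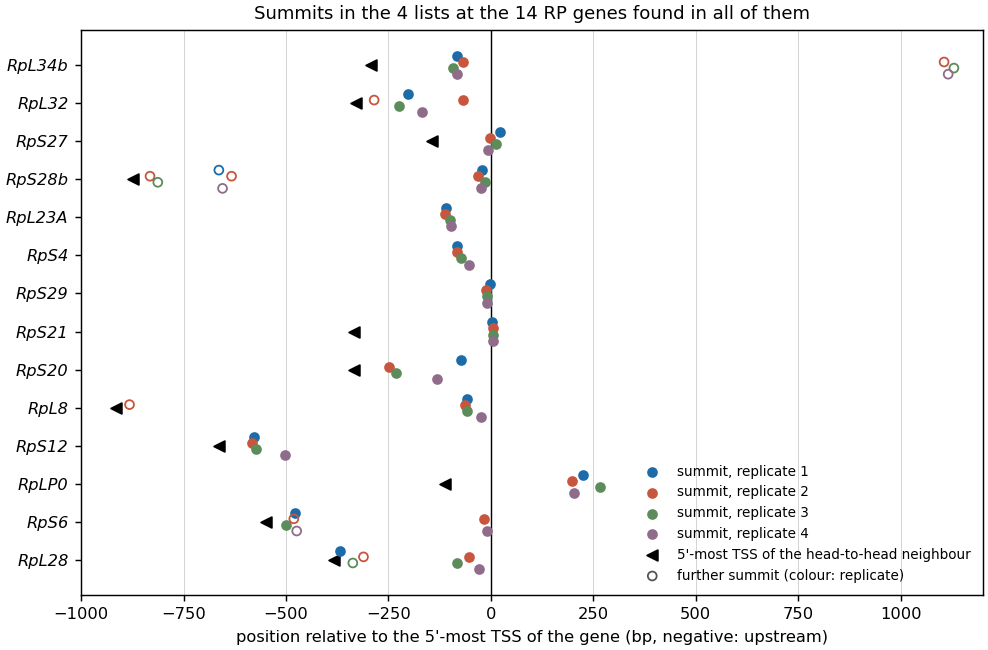
Summit positions in replicates 1 to 4 (coloured points) at the 14 RP genes found in all 4 lists. The horizontal axis gives bp relative to the 5′-most TSS of each gene, negative upstream. Filled points are the summit nearest to a TSS of the gene in each list, and open points are further summits of the same list within 1 kb. Triangles mark the gap to a head-to-head neighbour, measured from the canonical TSS of the RP gene. At RpL34b, RpL32, RpS21 and RpL28 the canonical TSS is not the 5′-most one, and the triangles lie too far upstream. Most summits lie close to the TSS, those of RpS12 lie near its neighbour's TSS, and RpS6 has a summit near its neighbour's TSS in all 4 lists and near its own in replicates 2 and 4.

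The 10 RP genes in 3 lists included RpL7, RpL41, RpS5a, RpL23, RpS7, RpS15Aa, RpL14, RpL35 and RpL30. RpL35 and RpL30 had a peak in replicate 1, and the others named lacked one there. RpL7 was the strongest, with signal percentiles of 90.6, 66.1 and 74.4 in replicates 2 to 4, a mean of 77.0 ± 12.5 (SD, n = 3), and summits at 21, 7 and 34 bp downstream. RpS15Aa had its summits 0, 6 and 0 bp from its nearest TSS, with 62.0, 20.4 and 37.9. These were not 1 place, since replicates 2 and 3 lay at 0 and 6 bp from its first TSS and replicate 4 at 67 bp downstream, on another TSS. The 15 RP genes in 2 lists had mean signal percentiles from 19.5 at RpS19a to 65.9 at RpL31, and replicate 2 was 1 of the 2 lists at each of them.

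Summits at RP genes lay closer to the TSS than those of all protein-coding genes, and related gene groups are compared further below. The median absolute distance was 78, 41, 82 and 25 bp in replicates 1 to 4, a mean of 56.5 bp ± 28.0 (SD, n = 4), against 174.5, 115, 155.5 and 167.5 bp for all genes, a mean of 153 bp ± 26.6. The RP genes were closer in each of the 4 lists, and the ranges over the lists did not overlap. A summit within 50 bp was found at 48.6% ± 15.4 of RP genes with a peak and at 19.0% ± 5.95 of all genes with one.

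RP genes have more annotated TSSs, a mean of 1.68 against 1.41 for all genes, which gives a summit more chances to lie near one. Measured to the 5′-most TSS only, the median was 82.5, 49, 92 and 41 bp for RP genes and 179, 130, 161.5 and 172 bp for all genes. For the 48 RP genes with 1 TSS it was 91.5, 49, 136 and 95.5 bp, against 174, 122, 160.5 and 171 bp for all genes with 1 TSS. The RP genes were closer in each list under both measures, by less where only genes with 1 TSS were used. The list of replicate 1 held 6 such RP genes.

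Most summits were upstream for RP genes, 81.9% ± 6.04, as for all genes, 86.0% ± 0.754. By annotation, 68.0% ± 6.11 of RP gene summits were intergenic, 26.3% ± 3.32 were in a 5′ UTR and 5.24% ± 3.61 in an intron, against 58.2%, 17.5% and 22.6% for all genes. No RP gene summit was in a coding exon, where 0.633% of the summits of all genes lay. The large subunit had a median distance of 65.6 bp ± 33.5 and the small subunit 38.4 bp ± 12.3, and the small subunit was the closer one in each of the 4 lists.

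**Figure D4:**
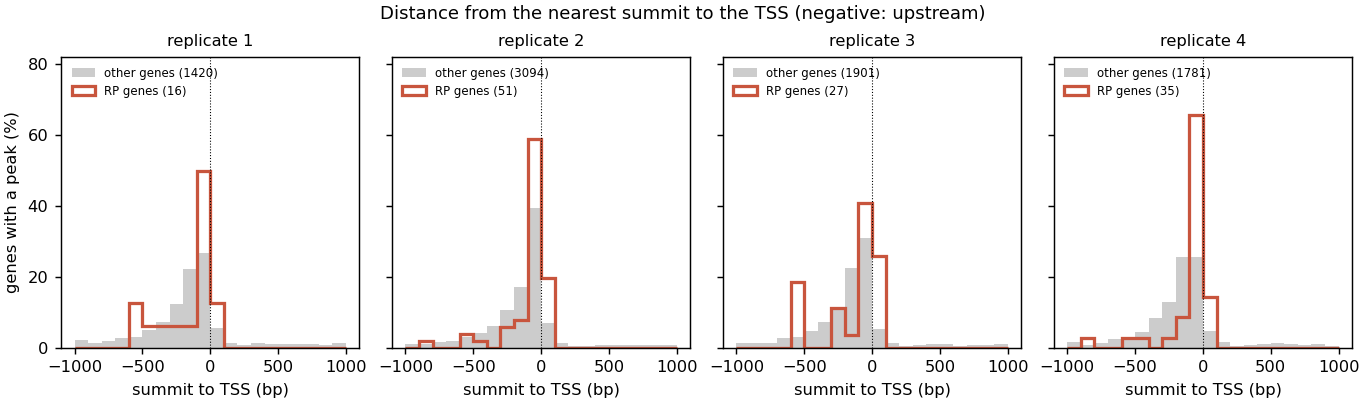
Distribution of the signed distance from the nearest summit to the nearest TSS (horizontal axis, bp, negative upstream, in bins of 100 bp) in each replicate, as a percent of the genes with a peak, for RP genes (red outline) and all other genes (grey). The bin just upstream of the TSS is the tallest for the RP genes in all 4 replicates, and the distribution of the other genes reaches further upstream.

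The limit of 1 kb cut few RP genes off. The farthest summits inside were those of RpS19b, at −882 and −878 in replicates 4 and 2, and the nearest outside were those of RpS18 at −1068 and of RpS14a at 1106, both in replicate 2. The peak near RpS14a was that of its tandem copy RpS14b, where it lay 50 bp upstream.

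Many RP genes share a promoter region with a neighbour transcribed the other way. A head-to-head neighbour was counted when any of its TSSs, also an internal one, lay within 1 kb upstream of the gene's canonical TSS. Such a neighbour was present at 54 RP genes (58.7%) and at 34.0% of all protein-coding genes. Of those 54, 28 (51.9%) were called, against 11 of 38 (28.9%) without such a neighbour. Among all genes the shares called were 28.2% and 9.66%. The share of RP genes was the higher one both with and without a head-to-head neighbour, and both groups of genes had the higher share where such a neighbour was present.

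The same peak lay within 1 kb of another gene's TSS at 29 of the 39 called RP genes (74.4%), against 65.0% of all called genes. With the summit nearest to each gene, the TSS of the RP gene was the nearest of any protein-coding gene at 28 of the 39 (71.8%), against 67.9%. Both shares were near the background. With each summit given to the gene of the nearest TSS alone, 30 RP genes (32.6%) were called, against 11.3% of all genes.

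Of the 14 RP genes in all 4 lists, 11 shared the peak with a head-to-head neighbour, and RpL23A, RpS4 and RpS29 did not. For these 11 pairs the gap was measured from the canonical TSS of the RP gene to the neighbour's TSS. It ran from 111 to 916 bp, with a median of 333 bp. RpL34b was paired with CG8132 at 293 bp, RpL32 with CG7943 at 330 bp, and RpS27 with Nup37, which encodes a nucleoporin, at 144 bp. At RpL32 the summit was closer to CG7943, a median of 124 bp, than to RpL32, 185.5 bp, and at RpL34b it was closer to the RP gene.

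Some partners also act in protein synthesis. RpS6 was paired with bys, whose product bystin acts in small-subunit assembly, at a gap of 549 bp, and a summit lay 48 to 75 bp from the TSS of bys in all 4 lists, with a further one at RpS6 in replicates 2 and 4. RpL28 was paired with eIF1, an initiation factor for the choice of start codon, at 383 bp, and a summit lay 12, 70 and 44 bp from the TSS of eIF1 in replicates 1, 2 and 3, while a summit nearer to RpL28 was found in replicates 2, 3 and 4. RpS12 was paired with Adk2, an adenylate kinase, at 664 bp, and its summits lay a median of 88 bp from Adk2 and 575.5 bp from RpS12. The peak counted for RpS12 was therefore nearer to its neighbour in all 4 lists.

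Among the others, RpL7 was paired with Ripalpha at 30 bp. RpL41 lies within NaCP60E, a sodium channel gene on the other strand, and 182 bp from an internal TSS of it. RpL14 was paired with Nelf-E, a subunit of the complex that holds paused RNA polymerase, at 127 bp. RpL13 was paired with Dref, the gene of the factor that binds the DRE, and this region had a peak in replicate 2 only. For a shared peak these data do not tell which gene it belongs to.

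Paralogues differed in being called. Of 15 pairs, both genes were called in 2, 1 gene in 10 and neither in 3, and RpS28b counts in 2 of the pairs. With 42.4% of all RP genes called, many pairs of unrelated RP genes would differ too. The paralogue pairs were not compared with such pairs. RpL34b and RpS28b were in all 4 lists, while RpL34a, RpS28a and RpS28-like were in none. RpS5a, RpS15Aa and RpL7 were in 3 lists, and RpS5b, known from the female germline, RpS15Ab and RpL7-like were in none. RpL10Ab, RpL22, RpL24 and RpS10b were in 2 lists, while RpL10Aa, RpL22-like, known from the male germline, RpL24-like and RpS10a were in none. These counts are of the thresholded lists of the replicates. The authors' thresholded lists for the whole series, derived from all 4 replicates, differed at some of these genes. In the conservative one RpL34a had a peak, and RpL24 and RpS10b had none. In the larger one RpL24 and RpS10b had a peak, and RpL34a had none. In the longer ranked lists described below, RpL34a, RpS28a, RpS28-like, RpS5b and RpS10a each had a peak in all 4. RpL7-like, RpL10Aa, RpL22-like and RpL24-like had one in 2, and RpS15Ab in 1.

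The pairs with both genes called were RpLP0 with RpLP0-like, in 4 and 2 lists, and RpS19a with RpS19b, each in 2. RpLP0-like, whose yeast counterpart acts in assembly of the stalk, had signal percentiles of 66.2 and 48.7 in replicates 2 and 3. It shared its peak with 14-3-3zeta, at a gap of 87 bp. The peak of RpS19b lay near the limit of 1 kb and was nearer to CG5854, while that of RpS19a lay 2 bp downstream and 39 bp upstream of its TSS in replicates 2 and 4. RpL37-1 and RpL37-2, RpLP1 and RpLP2, and RpS14a and RpS14b were the pairs with neither called. Of these genes RpS14b had a peak in both series-level lists, and RpS14a and RpL37-1 had one in the larger list only.

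Most RP genes absent from the thresholded lists had a peak in the longer ranked lists. Of the 40 genes in no thresholded list, 1 had no ranked peak within 1 kb in any replicate, 5 had one in 1 ranked list, 10 in 2, 15 in 3 and 9 in all 4. Per list 66.3% ± 15.5 (SD, n = 4) of the 40 had a ranked peak, against 48.3% ± 4.01 of all protein-coding genes in no thresholded list. The shares were 45, 80, 75 and 65% of the RP genes in replicates 1 to 4 and 52.6, 48.4, 49.2 and 42.9% of all such genes, so that replicate 1 went the other way. The median percentile of those peaks within the ranked list was 65.1 ± 14.5 against 52.1 ± 2.99, and was lower for the RP genes in replicate 1, at 44.8 against 50.8. RpL18 was the strongest, at 95.0, 88.4, 91.2 and 86.1 in the ranked lists of replicates 1 to 4. Both differences were about the size of the spread between lists of the RP genes.

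Most of the sequence motifs were found at similar shares of called and other RP genes. A TCT initiator was found at 15 of 39 called RP genes (38.5%) and at 19 of 53 others (35.8%), and a DRE at 13 (33.3%) and 15 (28.3%). Of RP genes with a DRE 46.4% were called and of those without 40.6%, while for all genes the shares were 23.1% and 15.3%. The core of Motif 1, searched as GGTCACAC on both strands of the same window, was found at 14.1% of RP genes and 7.52% of all genes. It was found at 6 called RP genes (15.4%) and 7 others (13.2%), and at none of the 14 in all 4 lists.

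The E-box CACGTG, the letters that Myc and Max are known to bind, was found at 12.0% of RP genes and 4.25% of all genes. It was present at 11 large-subunit genes and at none of the 38 of the small subunit. The E-box differed most by call, at 6 called RP genes (15.4%) and 5 others (9.43%), which are small counts. Of RP genes with it 54.5% were called and of those without 40.7%, while for all genes the shares were 19.2% and 15.8%. The TATA box, searched as TATAAA, was found at 45.7% of RP genes and 45.3% of all genes, and the GAGA element, searched as GAGAG, at 17.4% and 30.2%. These 3 motifs were searched on both strands. A match of letters describes the window and does not show that a factor was bound.

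**Figure D5:**
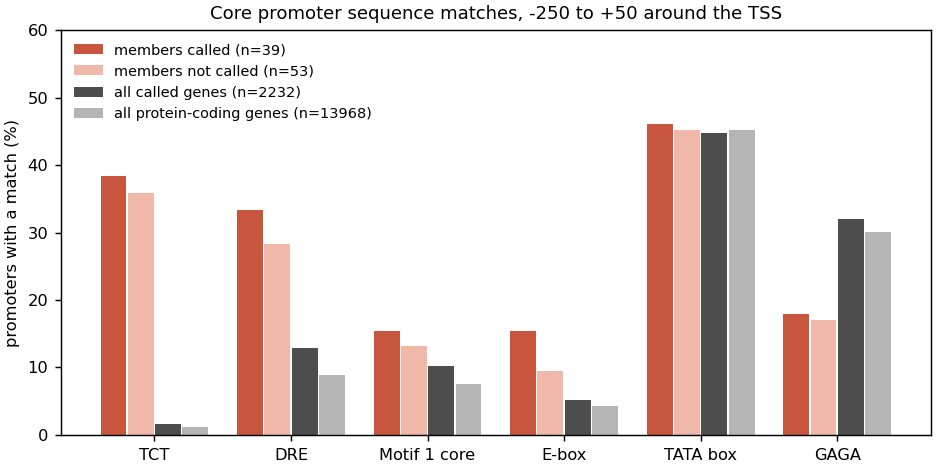
Share of promoters (vertical axis, percent) with a match to each of 6 motifs, for the 39 called RP genes, the 53 RP genes not called, all 2232 called genes and all 13968 protein-coding genes. The TCT was searched on the gene's strand within 5 bp of the canonical TSS. The other motifs were searched on both strands from 250 bp upstream to 50 bp downstream of it. The TCT and DRE bars are taller for RP genes than for all genes, and those of called and not called RP genes are of similar height.

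Small nucleolar RNA (snoRNA) genes lie within many RP genes, and were counted anywhere in the span of the gene on its strand. Of 28 RP genes with a snoRNA gene inside, 15 (53.6%) were called, and of 64 without, 24 (37.5%). Of all 84 protein-coding genes with a snoRNA gene inside, 36 (42.9%) were called. These 84 include the 28 RP genes, and the 36 include the 15 called RP genes. The number held did not follow the number of lists: RpS5a holds 14 and was in 3 lists, RpS7 holds 7 and was in 3, RpL28 holds 5 and was in 4, and RpS16 holds 5 and was in 1.

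Other genes of protein synthesis were called at shares between those of the RP genes and of all genes. Of 73 mitochondrial ribosomal protein genes 17 (23.3%) were called, of 41 translation factor genes 11 (26.8%), and of 28 ribosome biogenesis genes 8 (28.6%). The shares with a peak in all 4 lists were near each other for 3 of the groups. They were 15.2% of RP genes, 14.6% of translation factors and 14.3% of biogenesis genes, with 11.0% of mitochondrial RP genes. Their mean shares per list were 24.0% ± 12.7, 27.4% ± 13.3 and 25.9% ± 9.39 (SD, n = 4), against 35.1% ± 16.0 for the RP genes. Within a list the RP genes were higher than the mitochondrial RP genes by 11.1 percentage points ± 6.43, in 4 of 4 lists. They were higher than the translation factors by 7.62 ± 8.18, in 4 of 4 lists but by only 0.318 in replicate 1, and higher than the biogenesis genes by 9.16 ± 8.57, in 3 of 4 lists.

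Some of these genes had stronger peaks than any RP gene. The mitochondrial RP genes mRpS23, mRpL41, mRpS10 and mRpL23 had mean signal percentiles of 99.1 ± 0.281, 98.7 ± 0.850, 98.6 ± 0.662 and 98.5 ± 0.500 over 4 lists. Among translation factors eIF2Bbeta, a subunit of the exchange factor for eIF2, was at 100 in all 4 lists. In ribosome biogenesis eIF6, which keeps the subunits apart, had 99.6 ± 0.232. Not all of these summits lay close to the gene: the median position was −659.5 bp at eIF2Bbeta and −406.5 bp at mRpS23, against −95.5 bp at eIF6. Ns2, a nucleolar GTPase, came next among the biogenesis genes, at 78.5 ± 4.49, below the strongest RP genes.

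The summits of mitochondrial RP genes lay further from the TSS, with a median distance of 125 bp ± 14.9 against 56.5 bp ± 28.0 for the cytosolic ones. For biogenesis genes it was 124 bp ± 33.9. Translation factors had medians of 144, 53, 74 and 224 bp in replicates 1 to 4, and were closer than the RP genes in replicate 3. Summits within 200 bp were not particular to RP genes. Their mean share was 78.5% for RP, 79.2% for mitochondrial RP, 85.0% for biogenesis and 66.0% for translation factor genes. All 17 called mitochondrial RP genes had a head-to-head neighbour, against 79.5% of all mitochondrial RP genes and 60.1% of all called genes. Of the 11 regulator and growth genes, mTor and M1BP had peaks in 4 lists, with mean signal percentiles of 66.6 ± 12.4 and 54.2 ± 17.9, and Mnt in 2, with 12.5 ± 6.21. Dref, Max and Xrp1 had a peak in 1 list. Of the cytosolic ribosomal proteins with other symbols, Rack1 had a peak in 4 lists at 27.9 ± 24.1, with its median summit 3 bp upstream, and sta in 1.

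The RP genes called were spread over all the arms that carry any, and their share varied. On 3L 9 of 14 were called and 6 were in all 4 lists, and on X 8 of 14 were called. On 2R 8 of 21 were called, none of them in all 4 lists. On 3R 8 of 23 were called, on 2L 5 of 19, and the 1 gene on chromosome 4, RpS3A, was called. All genes were called at 14.6 to 17.3% on the arms 2L, 2R, 3L, 3R and X, a narrower span than that of the RP genes, whose counts per arm are small.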

How the data were processed

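Peak lists of 4 replicates, on dm6 per the labels, were analysed. Per the README deposited with each sample, thresholded peaks were called per replicate, from that replicate's alignment and further inputs whose role is not stated. Which aligner and peak caller made them is not given in the sources used here. Every deposited list gives a signal score per peak, an authors' value used here only as a rank within its list, an IDR score of at least 830, and a −log10 q-value, used in 1 alternative. The authors deposited no read counts in these lists, so depth is unknown and no interval is given.

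Summits on the main chromosome arms were kept, and the 55 to 110 peaks per list on other sequences were left out. TSSs came from protein-coding transcripts of Ensembl release 115. Where several peaks lay near a gene, the nearest summit gave its values. A gene was called with a peak in at least 2 of the 4 lists. The canonical TSS of 1 gene was replaced by its 5′-most TSS. Python 3.11.15, pandas 2.3.3, NumPy 2.4.6 and matplotlib 3.10.9 were used.

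The steps were tested on simulated data: of 300 genes given a peak in 2 lists, all 300 were called, 274 of them with the exact distance. The members and lists were chosen with earlier results of these data known. Genes named are those in all 4 lists, the 10 with the highest mean signal percentile in at least 3 lists, all paralogue pairs, those at the edge of the window, up to 4 of each related list, and neighbours at shared peaks; the other named members, and RpL14, RpL13 and RpL18 with their neighbours, were chosen after their values were seen. Some genes that this rule takes in are not reported here. The symbols wicked and Nol9 matched no gene. Replicates are separate samples of 1 group, and nothing states that they came from separate embryo collections. Alternatives were the number of lists, joined regions, the series-level lists, signal, list length, q-value, window, TSS choice, gene assignment, peak overlap and leaving out each replicate.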

Additional observations from a re-analysis of the deposited data

Results flagged for a closer look

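For the RP genes found in all 4 lists and for the shares per list, 33 groups of 4 values were searched for a replicate far from the other 3, and 4 were found, while chance flags about 1 in 20 groups. RpS20 had its lowest signal percentile, 1.03, in replicate 1, against 75.3 to 90.0 in the others. RpL28 had its summit at −369 bp in replicate 1, against −82 to −29 bp in the others. RpL8 had its summit at −25 bp in replicate 4, against −64 to −59 bp. RpS12 had its summit at −502 bp in replicate 4, against −582 to −574 bp.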

How the results depend on the processing

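In all 20 alternatives the share of RP genes called was above that of all genes, by 1.93 to 3.69 times. Requiring 3 lists gave 24 called (13 large, 11 small, own TSS nearest at 16), and requiring 4 gave 14 (6 large, 8 small, 11 with a shared peak, own TSS nearest at 10). The stronger 50% of each list gave 19 (11 large, 8 small, 15 shared, own nearest at 14), 7 in all 4 lists and, by construction, a median signal percentile of 71.4. Lists of equal length gave own TSS nearest at 18 and a percentile of 59.4. A window of 200 bp left 9 genes in all 4 lists, and 500 bp gave a percentile of 56.6. With the nearest TSS only, 9 were in all 4 lists, the median distance was 27.4 bp, 74.7% of summits were upstream and the percentile was 55.6. With the 5′-most TSS only, 72.3% were upstream. The cause was not tested.

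Leaving out each replicate in turn gave 24 to 39 called, 13 to 21 large, 11 to 18 small, own TSS nearest at 16 to 29, and 14 to 22 in all the remaining lists; replicate 2 gave the lowest counts called. The other 130 of 161 values moved by less than the spread between lists or within 1.5 times. For the 26 named RP genes that were called, the call held in 457 values and was lost in 63. For the 16 named that were not called, 313 values stayed so and 7 became called. No paired analysis was possible because the samples form 1 group; gene groups were set against each other within each list. Limits are the unknown depth, the missing control, the lists of unequal length and peaks shared between genes.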
